A study of Mus musculus with 13 samples.

Results

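Cnr1-high interneurons were the inhibitory nuclei of the mouse hippocampus that carried many transcripts of Cnr1, the gene of the cannabinoid receptor CB1. They were chosen by measured values. A nucleus was retained with at least 500 detected genes and at most 5% mitochondrial UMIs (unique molecular identifiers, each 1 counted RNA molecule). Among retained nuclei, members held at least 3 UMIs of Gad1 plus Gad2, which encode the GABA-synthesising enzymes, and at least 5 UMIs of Cnr1. They also held fewer than 2 UMIs each of Lamp5, Vip and Pvalb and fewer than 3 of Sst, the markers of the other large interneuron classes. This gave 587 members of 105427 retained nuclei (0.557%), or 12% of the 4891 nuclei that passed the Gad1 and Gad2 requirement and are called inhibitory here. Whole frozen hippocampus of 13 female mice of the C3B6F1 hybrid strain (spelled C3HB6F1 in some labels) was profiled by single-nucleus RNA-seq, with 1 library per mouse and nuclei sorted on Hoechst dye before capture. Young mice fed ad libitum (AL, 3 mice) were 5 months old and old mice fed ad libitum (3 mice) were 24 months old. Old mice under acute dietary restriction (DR, 3 mice) were 24 months old and had been restricted from 20 months, and old mice under long-term DR (4 mice) were 24 months old and had been restricted from 5 months. The labels name no transgene or gene deletion for any group. The design asks how ageing, and food restriction begun early or late in life, alter hippocampal cells.

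CB1 is a receptor coupled to inhibitory G proteins that sits mainly on axon terminals. Endocannabinoids made by the postsynaptic neuron travel back to the terminal and, through CB1, lower calcium entry and transmitter release. In the hippocampus the densest CB1 is found on GABAergic basket cells and dendrite-targeting cells that contain the peptide cholecystokinin, encoded by Cck, and most of these arise from the caudal ganglionic eminence, an embryonic source of interneurons. Excitatory neurons also carry Cnr1 and Cck, at lower Cnr1 levels.

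The 13 libraries held 38546292 to 80538090 UMIs each. Members per library ranged from 18 (young AL replicate 2) to 102 (acute DR replicate 1), with a median depth of 6256 to 20636 UMIs per member. Young AL replicate 2 had too few members for tests on sums. Its values are given beside those of the libraries in the fit for the genes of smallest p between old and young AL. Of the members, 17 (2.90%) were among the barcodes with the highest doublet scores, 11 carried a barcode sequence that also occurred in another library (1351 barcodes did so over all libraries), and 505 had no UMI of Slc17a7, the vesicular transporter of excitatory neurons. The 4 libraries numbered 1, 1 in each group, stood apart from the rest. In sums over all inhibitory nuclei, a term for the number 1, chosen after seeing the data, called 1670 of 13623 genes (12.3%) in edgeR's quasi-likelihood test with Benjamini-Hochberg adjustment, and in sums over members it called 215 of 7595 (2.83%). Among the latter were Gapdh, a glycolytic enzyme, at a log2 difference of 2.07, and Atp6v0c, a proton pump subunit, at 1.55. The labels do not say what the number stands for, and for some results below values with a term for the number or without these libraries are also given.

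The threshold on Cnr1 cut through a continuous range of counts. Just outside it, 69 nuclei had 4 Cnr1 UMIs and met every other criterion. Just inside it, 72 members had 5. Adarb2, a marker of interneurons from the caudal eminence, stood at 95.5 per 10000 UMIs outside and 128 inside. Npas1, a transcription factor of caudal-eminence cells, was detected in 52.2% outside and 58.3% inside, Lhx6, the transcription factor of medial-eminence cells, in 8.70% and 1.39%, and Cck in 24.6% and 22.2%.

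The share of members among inhibitory nuclei overlapped between the 4 groups. In young AL mice the share was 15.2%, 7.11% and 14.0% in replicates 1, 2 and 3, and in old AL mice 16.8%, 10.8% and 7.78% in replicates 1, 2 and 4. Under acute DR it was 13.4%, 11.1% and 6.82%, and under long-term DR 13.6%, 12.9%, 10.5% and 9.35%. All groups overlapped, and the number 1 library was the highest of its group in 4 of 4. Means were 12.1% ± 4.38 (SD, n = 3), 11.8% ± 4.6 (n = 3), 10.4% ± 3.32 (n = 3) and 11.6% ± 2.01 (n = 4). The mean log2 odds differed by -0.0437 between old and young AL (exact two-sided permutation p = 1) and by -0.178 between acute DR and old AL (p = 0.8), where 3 mice against 3 cannot go below 0.1. It differed by 0.0295 between long-term DR and old AL (exact two-sided permutation p = 0.971) and by 0.208 between long-term and acute DR (p = 0.6), where the smallest possible p is 0.0286. All 4 adjusted p-values were 1. Without the libraries numbered 1 the differences were -0.151 for ageing, -0.0713 for acute DR, 0.269 for long-term DR and 0.341 for long-term minus acute DR, with exact permutation p of 0.5 to 1 in groups too small to pass the threshold. Because the rule asks for a fixed number of Cnr1 UMIs, the share also follows depth. With inhibitory nuclei thinned to 4000 UMIs the mean shares were 7.54% in young AL, 4.44% in old AL, 3.61% in acute DR and 4.05% in long-term DR. The log2 odds of old and young AL then differed by -1.29 (exact two-sided permutation p = 0.3, adjusted p = 0.914).

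**Figure D1:**
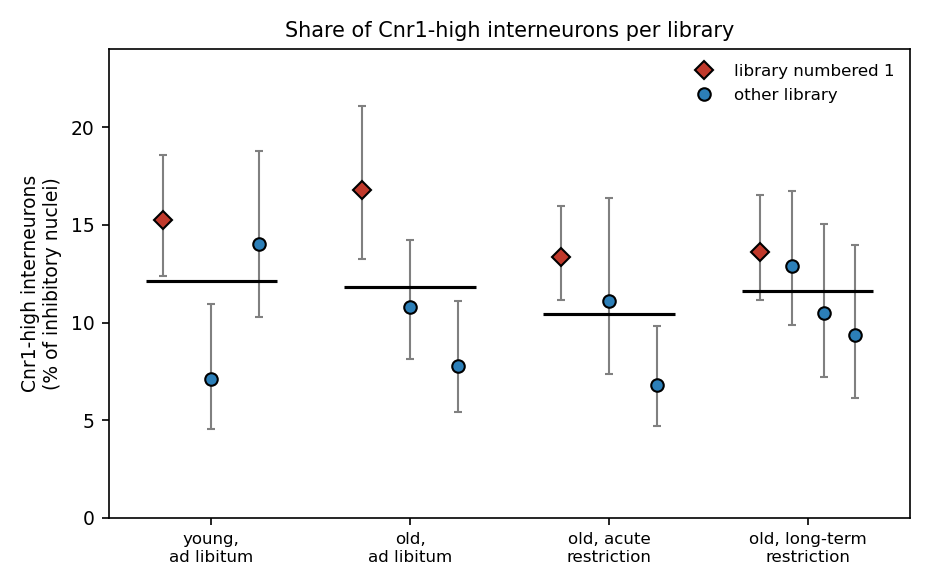
Share of inhibitory nuclei that were Cnr1-high interneurons (y axis, percent) in each of the 13 libraries, by group (x axis), with 95% Wilson intervals that cover counting error only and a bar at each group mean. The groups overlap, from 6.82% to 16.8%, and the library numbered 1 is the highest in each group.

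The members were inhibitory, and most leaned to a caudal-eminence profile in sums of genes that the rule did not use. After thinning to 4000 UMIs, which 583 members reached, Slc32a1, the vesicular GABA transporter, was detected in 16.3% of members, against 0.235% of 5110 excitatory and 0.384% of 2865 oligodendrocyte nuclei at the same depth. The summed UMIs of the caudal-eminence genes Adarb2, Prox1, Nr2f2 and Npas1 were compared with those of the medial-eminence genes Lhx6, Sox6, Nxph1 and Satb1. The caudal sum was at least 2 times the medial sum in 565 members (96.3%), with 25 members near that limit. Adarb2 dominated the caudal sum. On counts scaled to a common library total (CPM) it averaged 18490 in members, and Npas1 189, Nr2f2 80.0 and Prox1 67.1. The share leaning to caudal genes was 96.0% ± 3.48 (SD, n = 3) in young AL, 95.1% ± 5.09 (n = 3) in old AL, 99.4% ± 1.13 (n = 3) under acute DR and 98.0% ± 2.77 (n = 4) under long-term DR, with exact two-sided permutation p between 0.371 and 0.8. Adarb2 was found in 98.3% of members, 100% of Vip nuclei (inhibitory, with at least 2 Vip UMIs) and 74.8% of oligodendrocyte nuclei. It was found in 51.5% of 2791 inhibitory nuclei, of 2915 before thinning, called Cnr1-low here. These had fewer Cnr1 UMIs and stayed below the rule's limits for the 4 class markers, so they could hold low counts of them. Sst was found in 8.46% of Cnr1-low nuclei. Lhx6 was found in 0.686% of members and 14.1% of Cnr1-low nuclei, and Nxph1, a neurexin ligand of medial-eminence cells, in 29.3% and 74.5%. Prox1 went the other way, at a mean CPM of 67.1 in members, 87.2 in Cnr1-low and 82.6 in Lamp5 nuclei. Of 7 listed caudal genes of at least 10 CPM, 5 were higher in members in 13 of 13 libraries and 1 was lower. Of 8 medial genes 0 were higher and 5 lower. Over all genes of at least 50 CPM, 7.58% were higher and 12.2% lower. The rule itself kept nuclei with Sst or Pvalb counts out, and the caudal share was not computed for other inhibitory nuclei.

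Of 16 listed genes of CCK and CB1 interneurons with at least 10 CPM (UMIs of a gene scaled to a common library total), 11 were higher in members than in the other inhibitory nuclei in 13 of 13 libraries and 2 were lower. The 11 include Cnr1, whose level the rule fixed. Over all genes of at least 50 CPM, 7.58% were higher and 12.2% lower in 13 libraries. The lower genes of the list were the cation channel Trpc6, at a median of 49.4 CPM in members and 219 in the others, and Sema5a, a semaphorin, at 120.2 and 246. Cck was detected in 33.5% of members, 24.7% of Vip nuclei and 18.1% of excitatory nuclei, which also express it. The 10.4% in Cnr1-low nuclei was at the level of oligodendrocyte nuclei, which should lack Cck (10.8%). Slc17a8, the vesicular glutamate transporter VGLUT3 that a subset of CCK basket cells carries, was detected in 8.23% of members and 0.43% of Cnr1-low nuclei, against 0.0587% of excitatory nuclei. Htr3a, the ionotropic serotonin receptor of caudal-eminence interneurons, was detected in 16.3% of members, 1.58% of Cnr1-low and 18.8% of Vip nuclei. Cxcl14, a chemokine-like secreted protein, was detected in 21.4%, 1.90% and 12.3% of these. Reln, the secreted glycoprotein reelin, was found in 60.03% of members and 35.5% of Cnr1-low nuclei. Its mean level was higher in Lamp5 nuclei, at 1746 CPM against 805 in members. Sncg and Krt73, markers of this class in mouse cortex, were sparse, with 15 and 114 UMIs in all members. Tac2, a tachykinin precursor, was detected in 3.43% of members.

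**Figure D2:**
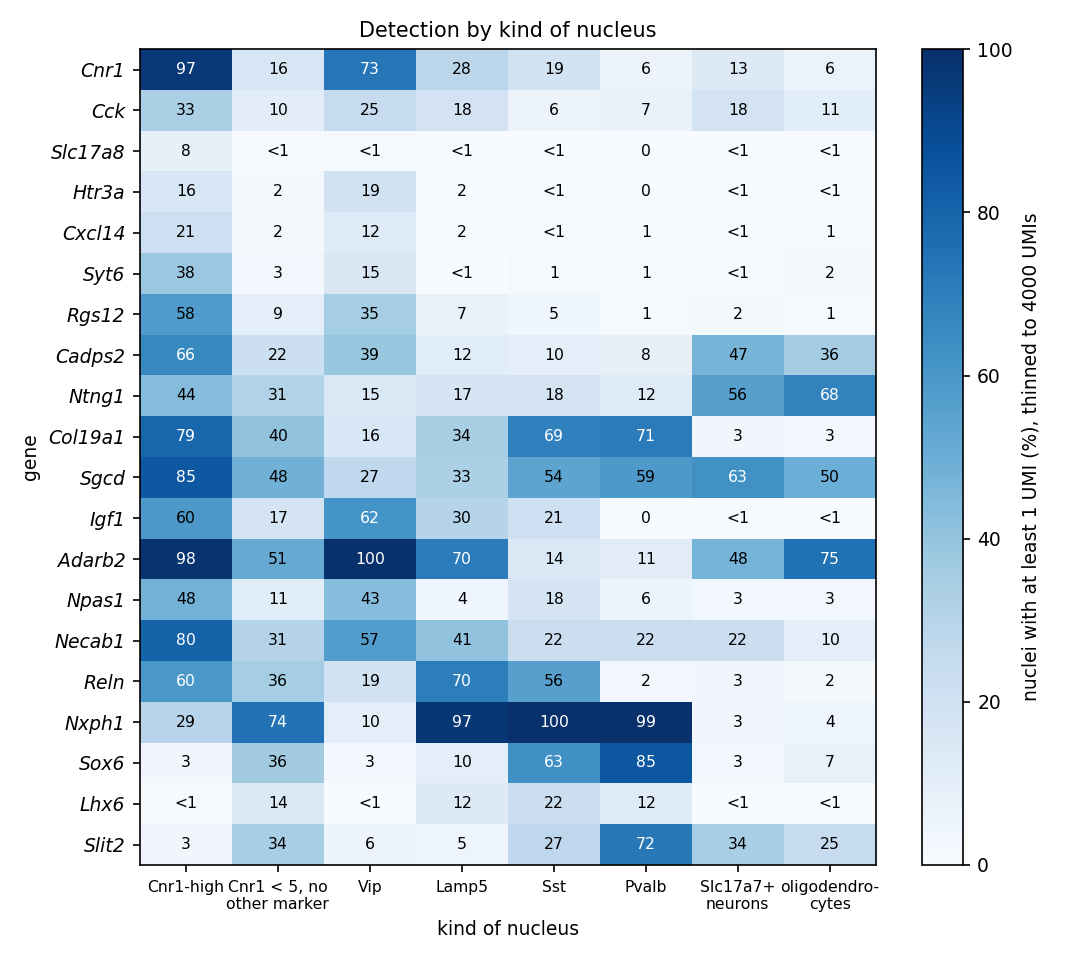
Share of nuclei with at least 1 UMI (color and printed percent) for genes (rows) in the interneuron classes, excitatory and oligodendrocyte nuclei (columns), each nucleus thinned to 4000 UMIs. Slc17a8 reaches 8.23% in Cnr1-high interneurons and 0.0587% in excitatory nuclei, while Lhx6 is at 0.686%.

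A set of genes separated members from the other inhibitory nuclei in each of the 13 libraries. Of 3548 genes with at least 50 CPM in either, 269 (7.58%) were higher and 434 (12.2%) lower in members in all 13 libraries. These are descriptions with no test, because the rule chose the nuclei, and classes with Sst, Pvalb, Vip or Lamp5 were kept out of the members by definition. In that ranking 26 genes stood at least 4-fold higher. The largest ratio (median over libraries) was 20.6-fold for Syt6, a synaptotagmin, at 171.8 CPM in members and 8.72 in the others. Megf10, an engulfment receptor, stood 17.0-fold higher. Cnr1, a rule gene, was 13.9-fold higher. Cadps2, a priming factor for dense-core vesicle release, reached 12.6-fold (1844 against 134.9 CPM). Cxcl14 followed at 11.5-fold and Col14a1, a collagen, at 11-fold. Rgs12, which shortens signalling by the inhibitory G proteins that CB1 uses, was 10.3-fold higher (316.8 against 34.4 CPM).

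Further down the same ranking stood Serpine2, a protease inhibitor (7.46-fold), Yjefn3 (7.4), Adarb2 (7.35, at 18040 against 2532 CPM) and Pde3a, a phosphodiesterase of cyclic nucleotides (7.16). Cpne5 (6.76), Sgcd of the dystrophin complex (5.59), Npas1 (5.32), the collagens Col25a1 (5.15) and Col19a1 (4.6), the non-coding 4930467D21Rik (5.03) and Npas3 (4.49) came next. Ntng1, netrin-G1, a membrane-anchored ligand of axons, stood 4.46-fold higher at 1079 against 264.9 CPM, and Epb41l4a 4.34-fold. The other inhibitory nuclei were mostly Cnr1-low (2915), and 328 were Vip nuclei, which shared part of this set. Mean CPM in members and Vip nuclei was 18490 and 14230 for Adarb2, 4658 and 3383 for Npas3, and 189 and 132 for Npas1. It was 327.9 and 132.1 for Rgs12 and 62.4 and 36.3 for Cxcl14. The 2 kinds lay further apart for Sgcd (2346 and 304.9) and Col19a1 (1649 and 155.1). Among the 31 genes at least 4-fold lower, several are known medial-eminence genes. Slit2, a secreted guidance cue, was 23.4-fold lower, Sst (a rule gene) 21.1-fold, Sox6 19.2-fold and Mctp2 15.5-fold. Tox (11), Tmem44 (9.29), Nek7 (9.02), Cdh7 (7.35), Nxph1 (6.8), Gpc6 (6.61), Adgrl2 (6.54), Tox3 (6.17), Fam135b (6.07), Sox5 (5.87) and Cdh12 (5.82) followed.

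The endocannabinoid genes around CB1 are set beside the 7.58% higher and 12.2% lower in 13 libraries over all genes of at least 50 CPM. Cnr1 is a rule gene, and its higher level was fixed by the choice of members. Neither of its accessory genes of at least 10 CPM was higher or lower in members in 13 of 13 libraries. Sgip1, which keeps CB1 at the membrane, stood at 669 CPM in members and 732.2 in other inhibitory nuclei, and Cnrip1, which binds the CB1 tail, at 75.7 and 79.1. Of 8 synthesis genes, none was higher in all libraries and 3 were lower. Dagla, the main synthase of 2-arachidonoylglycerol, stood at 22.5 and 48.5 CPM, Plcb1, the phospholipase that feeds it, at 658 and 1327, and Pla2g4e, an N-acyltransferase, was also lower. At 4000 UMIs Dagla was detected in 5.15% of members, 17.3% of Cnr1-low and 32.4% of excitatory nuclei. Of 6 breakdown and transport genes 1, Fabp5, a lipid carrier, was higher in all libraries. Mgll, which degrades 2-arachidonoylglycerol in terminals, was near equal at 129.8 and 130.8 CPM, as was Faah, which degrades anandamide, at 49.4 and 57.7.

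Downstream of the receptor the picture was mixed. Of 21 CB1 effector genes, Rgs12, the G protein subunit Gnao1 and Cacna1b, the N-type calcium channel of CCK basket terminals, were higher in 13 of 13 libraries. Cacna1b stood at 457.8 CPM in members and 261.7 in the others. The cyclases Adcy1, Adcy8 and Adcy9, the kinase subunit Prkacb, the potassium channel Kcnj9 and the P/Q-type channel Cacna1a were lower in all 13. Of 22 release genes, the active-zone scaffold Pclo (1454 against 712 CPM), Cplx2, Syn2 and Rims2 were higher, and Syt2, the calcium sensor of fast-spiking terminals, was lower. Among 10 genes of GABA synthesis, loading and uptake none was higher and 3 were lower, namely Gad1, a rule gene, the glutamine transporter Slc38a1 and the chloride exporter Slc12a5. Of 13 modulator receptors, Htr3a, the muscarinic receptor Chrm3 (1094 against 443 CPM), Adra1b, Npy1r and Esr1 were higher and none was lower in all 13.

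The other lists split as follows. Among adhesion genes of inhibitory synapses, those higher in 13 libraries included Nrxn3, Dmd and Gphn, and Cntnap4, Cdh12 and Cdh13 were lower. Of 15 genes of insulin and IGF signalling, the growth factor Igf1 was higher (283.6 against 76.1 CPM) and its receptor Igf1r and the adaptor Irs1 lower. Of 10 glucocorticoid response genes Zbtb16 was higher and the receptor Nr3c1 lower. None of 10 clock genes or 3 immediate early genes of at least 10 CPM was higher or lower in all 13.

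Among the members themselves, over 1241 genes with a mean of at least 0.5 UMIs at 4000 UMIs per nucleus, the median ratio of variance to mean was 1.244. It was highest for Malat1, a nuclear non-coding RNA (58.9), followed by Kcnip4, a potassium channel partner (30.1), Adarb2 (24.5), Cntnap2 (19.0), Cntn5 (18.5), Nrg3 (17.8) and Galntl6 (16.1). The other genes among the first 15 were Cntn4, Erbb4, Pcdh9, C130073E24Rik, Nrg1, Zfp804b, Lrrtm4 and Tenm2. All genes of this ranking come from nuclei chosen by the rule, so it is a description.

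Cadps2 and Ntng1, both far above the other inhibitory nuclei in the summed counts, tended not to share a nucleus. Across the 583 thinned members their Spearman correlation was -0.593, and it was negative within 13 of 13 libraries, from -0.747 to -0.301 (members of 1 library share its preparation). Adarb2 correlated at 0.557 with Cadps2 and at -0.439 with Ntng1, and Galntl6, a glycosyltransferase gene, at 0.472 and -0.672. With at least 2 of 4000 UMIs as the limit, chosen after seeing the data, 277 members (47.5%) held only Cadps2, 161 (27.6%) only Ntng1, 62 (10.6%) both and 83 (14.2%) neither. Independent occurrence would have put 129.7 members in the group with both. Counts of 1 or 2 UMIs of either gene, next to the limit, were held by 120 members. The kinds are defined by a limit on these counts, and whether they are separate cell types was not tested. At the same depth at least 1 UMI of Cadps2 was found in 65.9% of members and 35.9% of oligodendrocyte nuclei, and of Ntng1 in 43.7% and 68.1%, and the part of free RNA in these counts was not tested.

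**Figure D3:**
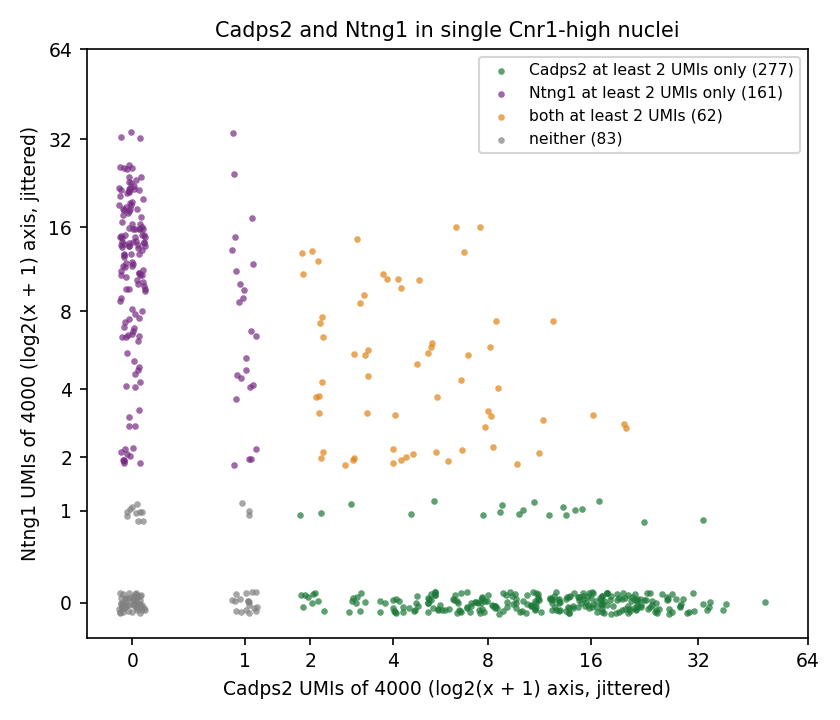
UMIs of Cadps2 (x axis) and Ntng1 (y axis) in each of 583 members thinned to 4000 UMIs, on log2 axes after adding 1, with small random offsets so that points do not overlap. Most members lie along an axis, with 277 holding at least 2 UMIs of Cadps2 only, 161 of Ntng1 only and 62 of both.

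Other genes followed the same division, given as mean UMIs of 4000 with Cadps2-only members first and Ntng1-only members second. Prkca, protein kinase C alpha, stood at 7.49 and 0.907, Galntl6 at 25.5 and 4.62, and the cation channel Trpm3 at 11.5 and 1.72. Adarb2 stood at 95.8 and 45.5, Syt6 at 1.36 and 0.168, Rgs12 at 2.13 and 0.478, and Npas1 at 1.13 and 0.273. The calcium-binding protein genes Vsnl1 and Calb1 stood at 3.07 and 1.09 and at 0.325 and 0.0124. Ntng1-only members had more of Tenm3, an adhesion receptor (6.84 and 11.8), Sema5a, a semaphorin (0.13 and 0.77), Nxph1 (0.191 and 2.27) and Maf, a transcription factor (0.639 and 1.34). Members with neither had 6.33 UMIs of Nxph1, 6.31 of Reln and 1.47 of Egfr on average. All 3 genes stood higher in Lamp5 nuclei, at mean CPM of 3348, 1746 and 424, than in all members, at 338, 805 and 50.6. Whether members with neither belong to that class was not tested. Cck differed less, at 0.715 and 0.441, and Cnr1, a rule gene, stood at 5.3 and 4.32. Syt6 and Rgs12, both among the genes of largest ratio to other inhibitory nuclei, thus stood higher in the Cadps2-only members.

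Cnr1 over all inhibitory nuclei, where the rule on Cnr1 does not act, was higher in the libraries numbered 1 and did not pass the test in any comparison of groups. In replicates 1, 2 and 3 of young AL it stood at 450, 201 and 280 CPM, and in replicates 1, 2 and 4 of old AL at 371, 167 and 116. Under acute DR it was 235, 180 and 115 CPM, and under long-term DR 248, 238, 142 and 156. The library numbered 1 was highest in each group, and the groups overlapped. In the fit over all inhibitory nuclei, added after seeing the data, libraries numbered 1 were higher by 0.87 on the log2 scale for Cnr1 (adjusted p = 0.0166, edgeR) and by 1.01 for Cck (adjusted p = 0.000454, edgeR), while Gad1 and Gad2 differed by -0.03 and 0.06. Old minus young AL was -0.42 for Cnr1 (adjusted p = 0.63, edgeR) and -0.49 with the number 1 term (adjusted p = 0.282), long-term DR minus old AL was -0.15 (adjusted p = 0.999, edgeR) and 0.04 with the term (adjusted p = 0.995), and acute DR minus old AL -0.29 (adjusted p = 1) and -0.21 with the term (adjusted p = 0.946).

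Within members, Cck on the log2 CPM scale (with a prior count of 2) was 8.16, 7.44 and 6.60 in young AL and 7.56, 5.74 and 5.85 in old AL. Under acute DR it was 7.62, 7.31 and 5.85, and under long-term DR 7.35, 6.74, 6.22 and 6.54. The number 1 library was again the highest of each group, and the groups overlapped.

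**Figure D4:**
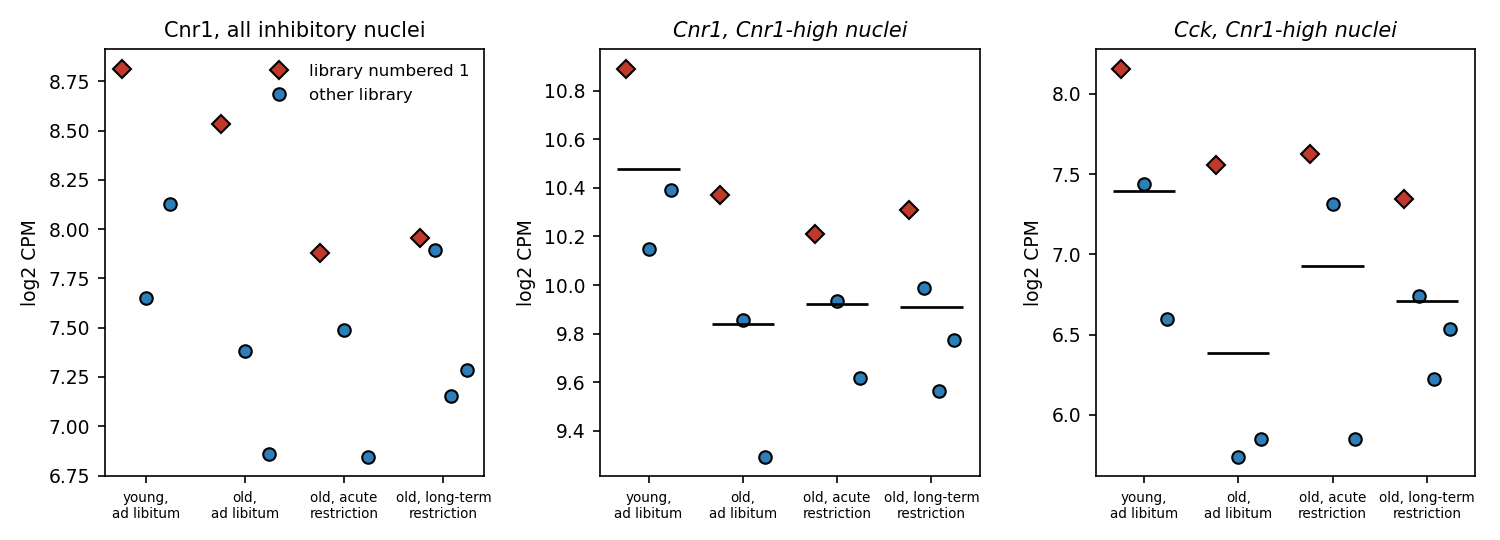
Cnr1 in all inhibitory nuclei, Cnr1 in members and Cck in members (y axes, log2 CPM) for each library by group (x axis), with libraries numbered 1 as diamonds and a bar at the group mean of the member panels. Cnr1 in all inhibitory nuclei spans the equivalent of 115 to 450 CPM, and the diamond is the highest of its group in each panel.

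For the comparison of groups, UMIs of members were summed per library and tested with edgeR's quasi-likelihood test over 7595 genes. Sums cannot tell fewer cells of a kind from less RNA per cell. No gene passed the adjusted threshold in any of the 4 comparisons of groups, so the values that follow describe the genes of smallest unadjusted p and are not calls. Rule genes are left out of these counts.

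Between old and young AL, 0 genes (0.0%) were called by edgeR and 0 by DESeq2, and 656 (8.64%) had an unadjusted p under 0.05, where 379.8 would do so by chance in independent genes. In DESeq2 377 genes had an unadjusted p under 0.05. The fit rests on 3 old and 2 young libraries. Over all tested genes, 2003 (26.4%) did not overlap between these old and young libraries. Satb1, a chromatin organiser of medial-eminence interneurons (chromosome 17, 51736187 to 51833290, minus strand, build GRCm38), stood at 5.26 and 5.46 log2 CPM in young replicates 1 and 3 and at 6.54, 6.97 and 6.38 in old AL. Young replicate 2, outside the fit, was at 5.28, and the log2 difference was 1.37 (adjusted p = 0.365, edgeR). Cdh4, the cell adhesion protein R-cadherin (chromosome 2, 179442431 to 179899373, plus strand), was at 6.07 and 6.11 in these young libraries, 6.58 in young replicate 2, and 6.69, 7.53 and 7.58 in old AL. Its log2 difference was 1.21 ± 0.28 (SE, adjusted p = 0.365, edgeR). Map7, a microtubule-binding protein, stood at 6.51 and 6.60 in the young libraries of the fit, 6.35 in young replicate 2, and 7.36, 7.37 and 7.40 in old AL (a log2 difference of 0.83). Lhfpl3, a gene that oligodendrocyte precursors also express, stood at 8.14 to 8.25 in the young libraries of the fit, 7.44 in young replicate 2, and 8.68 to 9.11 in old AL (0.76). Gm14330 (-1.33), Cox7c, a respiratory chain subunit, and 3110021N24Rik were lower in old AL than in all 3 young libraries, replicate 2 included. Alcam, an adhesion molecule, stood at 10.05 and 9.91 in the young libraries of the fit and at 9.35, 9.32 and 9.15 in old AL (-0.72), but at 8.54 in young replicate 2, below all old AL libraries. Car2, a carbonic anhydrase, stood at 5.99 and 6.003 in the young libraries of the fit and at 3.31 to 5.04 in old AL, with young replicate 2 inside that range at 4.15. The chaperone Hsp90aa1 differed by -1.25. None of these passed the test.

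Several values moved with this comparison. Across 7598 genes the log2 difference of old from young correlated with the length of the gene on the genome, at a Spearman rho of 0.441, against -0.08 for long-term and -0.0633 for acute DR (genes are not independent replicates). With that length trend removed, an alternative added after seeing the data, 424 genes in place of 656 had an unadjusted p under 0.05 and 0 were called by edgeR. The 4 markers of oligodendrocyte precursors summed to 241 to 367 CPM in young and 431 to 538 in old AL members. Most of each sum was Lhfpl3 alone, at 206.7 to 305.2 and 411.4 to 524.4 CPM. The precursors' defining marker Cspg4 was found in 0 of 583 thinned members. That allows a share of nuclei with a UMI of up to 0.515% at that depth and does not limit nuclei that express it. The Cajal-Retzius list summed to 232 to 810 and 882 to 1160 CPM, with its defining genes Trp73 and Lhx1 also at 0 of 583. Nearly all of that sum was Reln (206.7 to 644.8 and 737.5 to 977 CPM) and Ndnf, a secreted protein (25.8 to 160.3 and 112.5 to 202.1 CPM). The 3 Sst interneuron markers summed to 551 to 1420 CPM in young and 1530 to 2360 in old AL, and the 3 Pvalb interneuron markers to 1630 to 1670 and 1920 to 2430, while Sst and Pvalb themselves were limited by the rule. Under acute DR these sums were 988 to 1900 and 1440 to 1780, and under long-term DR 1210 to 1850 and 1240 to 2060. The part of these markers in the result was not tested. Hsp90aa1 stood at 4.99 in young replicate 2, below all old AL libraries (5.07 to 5.59), against 6.79 and 6.11 in the 2 young libraries of the fit.

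With a term for libraries numbered 1, the ageing comparison called 17 genes (0.224%), 1 higher and 16 lower in old AL. The higher one was Ndst4, a heparan sulfate enzyme. Among the lower ones were the cytoskeletal genes Tubb2a (-1.52, adjusted p = 0.0123, edgeR), Tuba1b and Actb, Hsp90aa1, Atp6v0c, the ubiquitin ligase Ube3a and P2ry14, a receptor of nucleotide sugars. The others were Gm14330, Nrg3os, 3110021N24Rik, Gm19710, Rsf1os1, Abhd15, Gm44686, Gm28370 and Gm32250. Young replicate 2, outside this fit, was at 5.91 log2 CPM for Actb, inside the old AL range (4.88 to 6.54). For Atp6v0c it was at 6.47, also inside that range (5.49 to 7.56). For Hsp90aa1 it lay below old AL, as given above, and for the remaining called genes it lay on the called side. With all 13 libraries in the fit (at least 10 members per sum, added after seeing the data) and this term, 72 genes (1.08%) were called for ageing and 1 (0.015%) for acute DR. Without old AL replicate 1 the fit without that term called 1 gene. Without young AL replicate 1 the comparison rested on 1 young library, and its count is not given.

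The restriction comparisons share the old AL mice as their control. Between acute DR and old AL, edgeR called 0 genes (0.0%), 310 (4.08%) had an unadjusted p under 0.05, and DESeq2 called 1. That gene was Ntng1 (chromosome 3, 109780040 to 110144011, minus strand), with an adjusted p of 0.00444 in DESeq2 and 0.149 in edgeR. Its log2 CPM was 9.59, 9.76 and 9.36 in old AL and 10.28, 10.43 and 10.38 under acute DR, with no overlap and a log2 difference of 0.80 ± 0.16 (SE). Groups did not overlap for 841 of the tested genes (11.1%) in this comparison. Under long-term DR it was 10.16, 10.21, 10.46 and 10.04, a difference from old AL of 0.65 ± 0.15 (SE, adjusted p = 0.596, edgeR), and in young AL 10.02, 9.72 and 10.11.

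Cdh4 had the smallest p in the acute comparison. It stood at 6.69, 7.53 and 7.58 log2 CPM in old AL and at 5.69, 6.34 and 6.03 under acute DR, a difference of -1.36 ± 0.26 (SE, adjusted p = 0.149, edgeR). The term for libraries numbered 1 made it the only call (0.0132%) at -1.29 (adjusted p = 0.0447, edgeR), and 6 of 29 alternatives called it, with adjusted p from 0.0004387 to 0.9999. Under long-term DR it was 6.45, 6.14, 6.22 and 6.35, all below the old AL libraries, with a difference of -0.99 ± 0.23 (SE, adjusted p = 0.596).

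Long-term DR against old AL gave 0 calls in edgeR (0.0%) and 0 in DESeq2, with 297 genes (3.91%) under an unadjusted 0.05. Thsd4, an extracellular matrix protein (chromosome 9, 59966931 to 60522046, minus strand), stood at 4.09, 4.43 and 4.29 log2 CPM in old AL and at 5.51, 5.56, 5.87 and 5.21 under long-term DR, a difference of 1.52 (adjusted p = 0.596, edgeR). Under acute DR it stood at 5.37, 5.65 and 5.40, and young AL spread from 3.41 to 5.46. Prkca (chromosome 11, 107933387 to 108343928, minus strand) was at 10.46, 10.85 and 10.77 in old AL and at 9.73, 10.12, 10.31 and 9.09 under long-term DR (-0.81, adjusted p = 0.91, edgeR), with 9.75, 10.21 and 9.88 under acute DR. Vsnl1, a neuronal calcium sensor (chromosome 12, 11325242 to 11436613, minus strand), was at 9.34, 9.57 and 9.90 in old AL, 9.12, 9.04, 9.10 and 8.51 under long-term DR and 8.75, 9.17 and 8.77 under acute DR. Each of these 3 genes had old AL libraries that overlapped neither restricted group. Over all tested genes, 450 (5.92%) did not overlap between long-term DR and old AL and 841 (11.1%) between acute DR and old AL. Long-term and acute DR differed in 0 genes in edgeR (0.0%) and 0 in DESeq2, with 154 (2.03%) under an unadjusted 0.05.

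**Figure D5:**
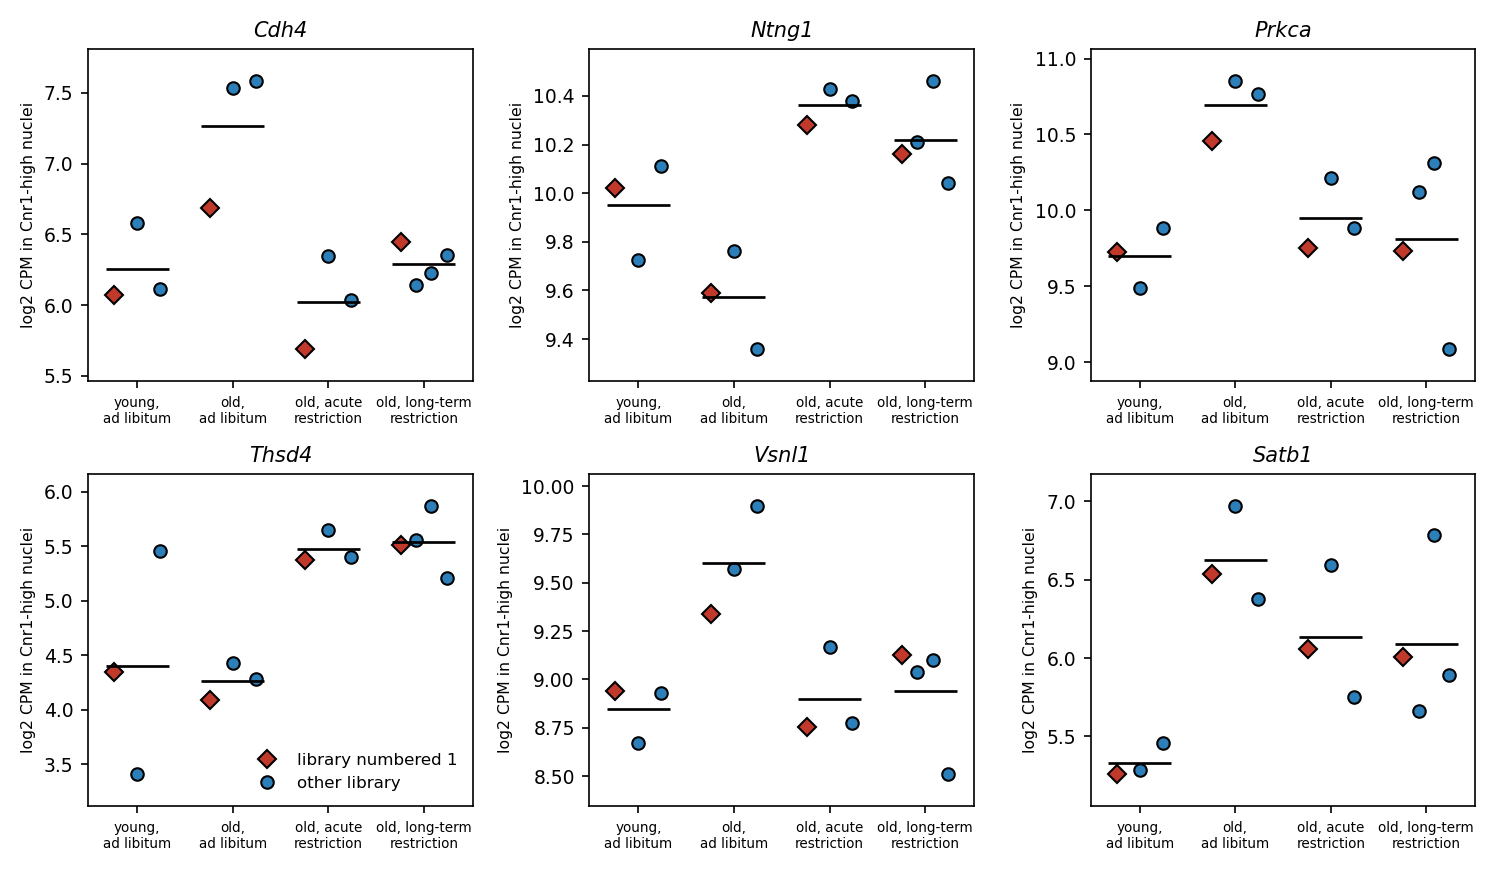
Log2 CPM (y axes, prior count 2) of Cdh4, Ntng1, Prkca, Thsd4, Vsnl1 and Satb1 in the summed members of each library, by group (x axis), with libraries numbered 1 as diamonds and a bar at each group mean. Young AL includes replicate 2, which is outside the fit. Old AL libraries of Ntng1 lie from 9.36 to 9.76, below all restricted libraries, and those of Cdh4 from 6.69 to 7.58, above them.

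Prkca, Vsnl1 and Cdh4 also differed between the 2 main kinds of members, and Ntng1 did so by the limit that defines the kinds. Mean UMIs of 4000 for Cdh4 were 0.448 in Cadps2-only and 0.168 in Ntng1-only members. The former were higher in 12 of 13 libraries. The shares of these kinds are given here. Ntng1-only members were 15.3%, 25.6% and 22.2% of members in old AL, 31.7%, 23.8% and 26.9% under acute DR, 27.1%, 29.8%, 32% and 35.0% under long-term DR and 28.6%, 43.8% and 27.8% in young AL. Cadps2-only members were 42.4%, 51.2% and 51.9% in old AL, 45.5%, 47.6% and 38.5% under acute DR and 51.8%, 42.6%, 44% and 35% under long-term DR, and these overlapped. For Ntng1-only members acute DR overlapped old AL and long-term DR did not, but each such share rests on 5 to 32 nuclei, and its part in the differences was not tested. Within Cadps2-only members, Cdh4 was at 120, 193 and 268 CPM in old AL and 54.4, 175 and 100 under acute DR, which overlapped. These values rested on only 12, 17 and 15 UMIs in old AL and 10, 7 and 4 under acute DR. Vsnl1 within them was at 920, 1011 and 1054 CPM in old AL, above the 582, 750.0 and 750.0 of acute DR and the 591, 738, 886 and 607 of long-term DR. Prkca within them was at 2280, 3148 and 2857 CPM in old AL, above the 1647, 2225 and 2025 of acute DR, and overlapped long-term DR (1364, 1850.0, 2341 and 1393). Cdh4 within them was at 62.5, 150, 182 and 0 CPM under long-term DR (11, 12, 8 and 0 UMIs), which overlapped old AL. Within Ntng1-only members the groups overlapped for both other genes. Vsnl1 was there at 306, 341 and 583 CPM in old AL, 227, 550.0 and 179 under acute DR and 315, 196, 563 and 214 under long-term DR. Prkca was at 278, 227 and 458 CPM, 344, 200 and 179, and 109, 232, 188 and 250.0 in the same order, from few UMIs per library. These values are descriptions, since the kinds were chosen after seeing the data. The oligodendrocyte markers in members summed to 32.1 to 121 CPM in old AL, 37.6 to 362 under acute DR (highest in replicate 3) and 34.4 to 90.4 under long-term DR. The 6 astrocyte markers summed to 208 to 467, 196 to 642 and 185 to 325 CPM in the same order. The 5 microglial markers, each with UMIs in members before thinning, summed to 15.6 to 38.1, 18.8 to 30.4 and 20.3 to 38.9 CPM. Tmem119 among them was at 0 of 583 thinned members.

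Whether a group difference in members departed from that in the other inhibitory nuclei was tested as an interaction over 12543 genes, with each library as a block. For acute DR, 1 gene (0.00797%) was called. Cdh4 in the other inhibitory nuclei stood at 74.1, 99.2 and 89.4 CPM in old AL and at 118, 86.7 and 68.1 under acute DR. The change in members was lower than that in the others by a log2 difference of -1.57 (adjusted p = 0.0273, edgeR). It was called in 12 of 21 alternatives and kept its sign in each of them (-2.21 to -0.89, adjusted p from 1.907e-07 to 0.7594). The 12 include every fit without a young AL or long-term DR library. Those libraries are not in this contrast, and the difference there stayed at -1.58 to -1.56. The 12 also include Cnr1 of at least 8 UMIs (-2.21), where acute DR rested on replicate 1 alone. The call was lost without old AL replicate 2 (adjusted p = 0.0824) or 4 (0.0803), without acute DR replicate 1 (0.7558), and among libraries not numbered 1 (0.277). It was also lost with the highest doublet scores removed (0.081), with members thinned to 4000 UMIs (0.548), with members without Slc17a7 UMIs only (0.623), with RLE factors (0.0598) and with Cnr1 of at least 3 UMIs (0.759). Next in order were Prkca (-0.84, adjusted p = 0.0503) and Epb41l4a (-1.03, adjusted p = 0.0514). For ageing and for long-term DR this edgeR interaction called 0 genes (0.0%), with 545 and 510 genes under an unadjusted 0.05, and DESeq2 was not run for it.

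None of the 15 gene lists held a gene called by edgeR in any comparison of groups, and each list's counts are read against the shares of all genes given above. DESeq2 called Ntng1, of the CCK and CB1 list, for acute DR. Counts are of genes with an unadjusted p under 0.05, in the order ageing, long-term DR and acute DR, and the named genes carry their log2 differences. Median log2 differences over all genes were -0.0101, 0.00619 and 0.00727. Of 16 tested genes of CCK and CB1 interneurons the counts were 4, 3 and 4, with medians of 0.167, -0.196 and -0.0071. In ageing these were Tac2 (-2.46), Ntng1 (-0.50), Reln (0.79) and Tnfaip8l3, a lipid transfer protein (0.78). In long-term DR they were Ntng1, the cation channel Trpc6 (-0.66) and Tnfaip8l3 (-0.71), and in acute DR Ntng1, Trpc6 (-0.57), Tnfaip8l3 (-0.74) and Npas1 (-0.48). All 3 contrasts share the old AL mice. Of 7 caudal-eminence genes the counts were 1, 1 and 1 (medians 0.266, -0.22 and -0.2), namely Npas3 (0.46), Prox1 (-0.77) and Npas1. Of 6 medial-eminence genes they were 1, 1 and 0 (0.0646, -0.349 and -0.0628), both Satb1.

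Among genes of CB1 signalling, the 2 tested receptor partners gave 0, 0 and 0. The 8 synthesis genes gave 1, 0 and 1 (medians 0.205, -0.117 and 0.147), both Pla2g4e (0.86 in ageing and -0.88 in acute DR). The 5 breakdown and transport genes gave 1, 0 and 0 (-0.0959, 0.189 and 0.112), which was Fabp5 (-1.32). The 19 effectors gave 1, 2 and 4 (0.113, 0.047 and -0.106). They were the calcium-stimulated cyclase Adcy8 in ageing (1.04), the G protein subunit Gnai1 (-0.64) and the potassium channel Kcnj3 (0.42) in long-term DR, and Gnai1 (-0.59), Adcy8 (-0.83), Rgs7 (0.41) and Rgs12 (-0.46) in acute DR. The 20 release genes gave 3, 1 and 0 (0.161, -0.036 and -0.125). They were the active-zone protein Erc2 (0.36), the vesicle GTPase Rab3b (1.05) and Syn1 (0.50) in ageing, and Pclo (0.37) in long-term DR. Of 14 modulator receptors 2, 0 and 0 were under that p, Chrm3 (-0.79) and Esr1 (0.87). Of 15 adhesion genes it was 1, 1 and 2, namely Cdh13, or T-cadherin, in all 3 contrasts (0.83, -0.64 and -0.67) and Cntnap4 in acute DR (0.56). The 8 GABA genes, 8 clock genes and 1 immediate early gene gave 0 in each. The 7 glucocorticoid genes gave 1, 0 and 0 (Zbtb16, 0.79), and the 14 insulin and IGF genes 0, 1 and 0 (Pik3r1, a subunit of phosphoinositide 3-kinase, -0.77). In long-term against acute DR no list held a called gene either.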

How the data were processed

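Per the submitters' processing notes, reads were processed with Cell Ranger 4.0.0 and build mm10. The authors deposited, for each of 13 libraries, UMI counts of 32285 genes by barcode, not normalized. Cell calling, intron counting and doublet removal are not given in the sources used here. UMIs were counted with Python 3.11.15, numpy 2.4.6 and pandas 2.3.3. All 105759 deposited barcodes were read, and those below 500 genes or above 5% mitochondrial UMIs were set aside. Doublets were scored with Scrublet in scanpy 1.11.5 but removed only in an alternative (the highest 0.8% per 1000 retained barcodes).

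Members were summed per library where at least 20 were present (12 libraries) and tested with edgeR 4.0.16 (R 4.3.3, TMM, filterByExpr, robust quasi-likelihood, adjusted p below 0.05). DESeq2 1.42.0 was an alternative. Libraries are separate mice, and no cell was treated as a replicate. Shares were tested by exact two-sided permutation of mean log2 odds, with 0.5 added to counts, adjusted over 4 contrasts. Detection shares, variation among members and the Cadps2 and Ntng1 kinds used counts thinned to 4000 UMIs. CPM and ratios of members against other inhibitory nuclei, and the interaction, used sums without thinning. Intervals are 95% Wilson and cover counting error only. Log2 CPM used a prior count of 2. In simulated sums, edgeR recovered 28.1%, 51.0% and 40.6% of 2-fold changes (ageing, long-term, acute) and 88.3%, 96.4% and 91.8% of 4-fold changes, with 192 changed genes of 7252 tested and 196 of 7260 tested.

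Replicate numbers in the labels were not taken to pair mice (see the block under the alternatives). The members, lists and tests were chosen with earlier results of these data known. Named genes are called genes, the 10 of smallest p per contrast, the 20 highest and 15 lowest ratios to other inhibitory nuclei, the 15 most variable genes and members of 15 lists. Gene positions are from the GENCODE annotation of GRCm38. Genes were matched to positions and lengths by Ensembl gene identifier without version. Some results are not reported here.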

Additional observations from a re-analysis of the deposited data

Results flagged for a closer look

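In 4 of 53 sets of 4 libraries, 1 library lay far from the others relative to the range of its group, and chance alone flags about 1 in 20 such sets. All were in long-term DR, the only group of 4. Ndnf, a secreted protein of Cajal-Retzius and neurogliaform cells, stood at 6.44 log2 CPM in replicate 2 against a median of 7.69 in the others. Slc25a28, a mitochondrial iron importer, stood at 4.82 in replicate 3 against 5.47. Stk32a, a kinase, stood at 6.80 in replicate 4 against 7.80, and Vsnl1 at 8.51 in replicate 4 against 9.10. Replicate 4 had 20 members, the fewest of the libraries in the fit. For acute DR, the log2 change of Cdh4 in members minus that in other inhibitory nuclei was -1.57 (adjusted p = 0.0273, edgeR interaction), the only gene of 12543 for which the difference between the nuclei passed the test.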

How the results depend on the processing

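Counts of calls were 0 in all 4 comparisons of groups and stayed small. Counts are given in the order ageing, long-term, acute, long-term minus acute. Without a filter on low counts they were 59, 6, 4 and 0. With libraries not numbered 1 only they were 42, 3, 12 and 6. The ageing count of that setting rested on 1 young library, replicate 3, because replicate 2 fell below 20 members. It has no spread among young mice behind it and is not read as a result. With Cnr1 of at least 8 UMIs ageing and long-term gave 1 each. The 2 comparisons with acute DR then rested on 1 acute library, and their counts are not given. The number 1 term gave 17 for ageing and 1 for acute, and with at least 10 nuclei per sum (13 libraries, added after seeing the data) 72 and 1. Acute gave 1 with DESeq2 and 1 with median UMIs as a covariate, and long-term 1 with only the groups compared. Leaving out 1 library gave 0 to 1 for long-term, 0 to 1 for acute and 0 to 0 for long-term minus acute. For ageing, leaving out 1 old library gave 0 to 1. Fits without a young library rested on 1 young library, and their counts are not given. Replicate numbers were not taken to pair the mice, since not every pair correlated above 0.1: for number 1, 5 of 6 pairs of libraries correlated above 0.1, for number 2 1 of 3, for number 3 2 of 3 and for number 4 0 of 1, against 5 of 40 pairs with different numbers, and 5 of 12 libraries correlated best with their own number. The replicate block gave 20 calls for ageing and 0 elsewhere.

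For the interaction (main 0, 0 and 1) no filter gave 8, 16 and 13. Cnr1 of at least 8 UMIs gave 4 for ageing and 7 for long-term. Acute DR there rested on replicate 1 alone, because replicates 2 and 3 fell below 20 members, and its count is not given. Libraries not numbered 1 gave 9 for long-term and 5 for acute. Ageing then rested on 1 young library, and its count is not given. Thinning gave 1 for ageing and 2 for long-term, members without Slc17a7 UMIs gave 2 for ageing, the number 1 term 2 for acute, and RLE factors and Cnr1 of at least 3 UMIs 0 for acute. Leaving out 1 library gave 0 to 2 for long-term and 0 to 4 for acute. For ageing, leaving out 1 old library gave 0, and fits without a young library rested on 1 young library.

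Share differences (log2 odds) changed sign in several settings. Ageing turned to 0.00699 without Slc17a7 UMIs, 0.0932 at Cnr1 of at least 3, 0.0564 at Gad1 plus Gad2 of at least 5 and 0.637 among all retained nuclei, and moved to -1.29 after thinning to 4000 UMIs (exact permutation p = 0.3; left-out libraries -0.422 to 0.249). Long-term turned to -0.0899 after thinning, -0.0377 without Slc17a7, -0.0636 at Cnr1 of at least 3 and -0.368 among retained nuclei (-0.263 to 0.359). Acute turned to 0.133 after thinning (-0.471 to 0.151), and long-term minus acute to -0.222 (-0.0973 to 0.430). The caudal-leaning difference turned for ageing when libraries were left out (-0.944 to 0.650), and at a caudal sum of 5 times the medial one to -0.0828 for acute and 0.666 for long-term minus acute. The causes were not tested.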

Other observations

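Slc17a8, the VGLUT3 gene of a subset of CCK basket cells, was uneven among old AL members. It had 89, 3 and 0 UMIs in replicates 1, 2 and 4 (66.0, 5.72 and 0 CPM), against 51, 10 and 21 in young AL (61.0, 86.1 and 53.9 CPM). Under acute DR it was at 47.5, 38.0 and 11.9 CPM, and under long-term DR at 29.5, 37.1, 10.2 and 30.6. The groups overlapped, and old minus young was -0.74 ± 0.85 on the log2 scale (SE, adjusted p = 0.847, edgeR).

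Igf1, a secreted growth factor, was detected in 59.5% of members and 17.3% of Cnr1-low nuclei at 4000 UMIs, and Necab1, a calcium-binding protein, in 80.1% and 30.6%. Rgs12 reached 58.2% in members, 35.4% in Vip and 9.42% in Cnr1-low nuclei, against 1.6% in excitatory and 1.1% in oligodendrocyte nuclei. Ntng1 was found in 43.7% of members, 14.6% of Vip nuclei and 68.1% of oligodendrocyte nuclei, so its UMIs are not particular to interneurons. Syt6 was found in 38.1% of members, 14.9% of Vip nuclei, 2.58% of Cnr1-low nuclei, 1.75% of oligodendrocyte nuclei and 0.607% of excitatory nuclei.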
